A study of Mus musculus with 10 samples.

Results

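The NRF2, glutathione and pentose phosphate genes described here are 38 genes taken by symbol from a list of antioxidant and NADPH genes, and all 38 were among the 22186 genes of the deposited table. Messenger RNA was measured in the macrophage-like mouse line RAW264.7, which came from a virus-induced tumour and which the labels give as wild type. Of 10 libraries, 5 came from cells kept for 24 h in medium with doxorubicin, an anthracycline drug that poisons topoisomerase II, and 5 from cells kept in medium. The titles name a dose of 10 nM and the series design 100 nM with a remark that 100 nM is right, so no dose was used in a calculation. Doxorubicin was added from a stock in dimethyl sulfoxide, and the labels do not name that solvent for the medium cultures. Whether the 5 libraries of a group were grown as separate cultures is not stated in the labels for this 1 cell line. The spread behind each p-value is thus that between these libraries and may be technical. Where the replicate number is used as a block, it is the part of that spread left within numbers.

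NRF2, encoded by Nfe2l2, is a transcription factor that KEAP1 holds in the cytoplasm and marks for degradation; oxidants and electrophiles modify KEAP1, and NRF2 then enters the nucleus and binds antioxidant response elements with a small MAF partner. Its known targets make glutathione, reduce thioredoxin, conjugate reactive compounds and supply NADPH, the electron donor of both the thioredoxin and the glutathione systems. In macrophages, whose NADPH oxidase makes superoxide, these systems limit damage from the cell's own oxidants, and anthracyclines can pass electrons to oxygen by redox cycling.

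Values are FPKM, which correct fragments for transcript length and library total, and differences are doxorubicin minus medium on log2(FPKM + 1). The FPKM of a library summed to between 338293 and 356111, and the depth of each library is unknown, so no counting interval is given. Doxorubicin 1 and medium 1 stood apart from the remaining 8 libraries. Over the 9869 genes averaging 1 FPKM or more, their correlations with libraries of numbers 2 to 5 were 0.937 to 0.982, against 0.976 to 0.998 among those 8. Of 10 macrophage markers, 8 averaged at least 1 FPKM, with sums of 1430 to 1640 FPKM with doxorubicin and 1360 to 1500 in medium, and Mertk and Mrc1 lay below 1 FPKM. Marker sums were at most 1.62 FPKM with doxorubicin and 1.81 in medium for neutrophils, 0.252 with doxorubicin and 0.120 in medium for T, B and NK cells, and 0.887 with doxorubicin and 0.798 in medium for fibroblast, epithelial, endothelial and erythroid genes. Cdkn1a, the p21 gene induced by p53 after DNA damage, was at 120 to 212 FPKM with doxorubicin and 42.5 to 54.4 in medium (difference 1.48, limma adjusted p = 0.00466).

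Of the 38 genes, 37 passed the filter on low values and Gsta4 did not, with 0.0345 ± 0.0375 FPKM with doxorubicin and 0.0376 ± 0.0523 in medium (SD, n = 5 each). These 37 genes were highly expressed: their median level was 65.9 FPKM over all libraries, against 12.6 FPKM for all genes tested. Of the 37, 16 averaged above 100 FPKM. That level holds for the genes listed here, as 16 of 36 other glutathione genes were too low to test. Together the 38 made up 1.12% to 1.51% of the FPKM sum. Sod1, Prdx1, Txn1, Gpx1 and Taldo1 had the highest levels in medium. Me1, Glrx2, Ephx1, Gss and Mgst3 were the lowest after Gsta4.

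**Figure D1:**
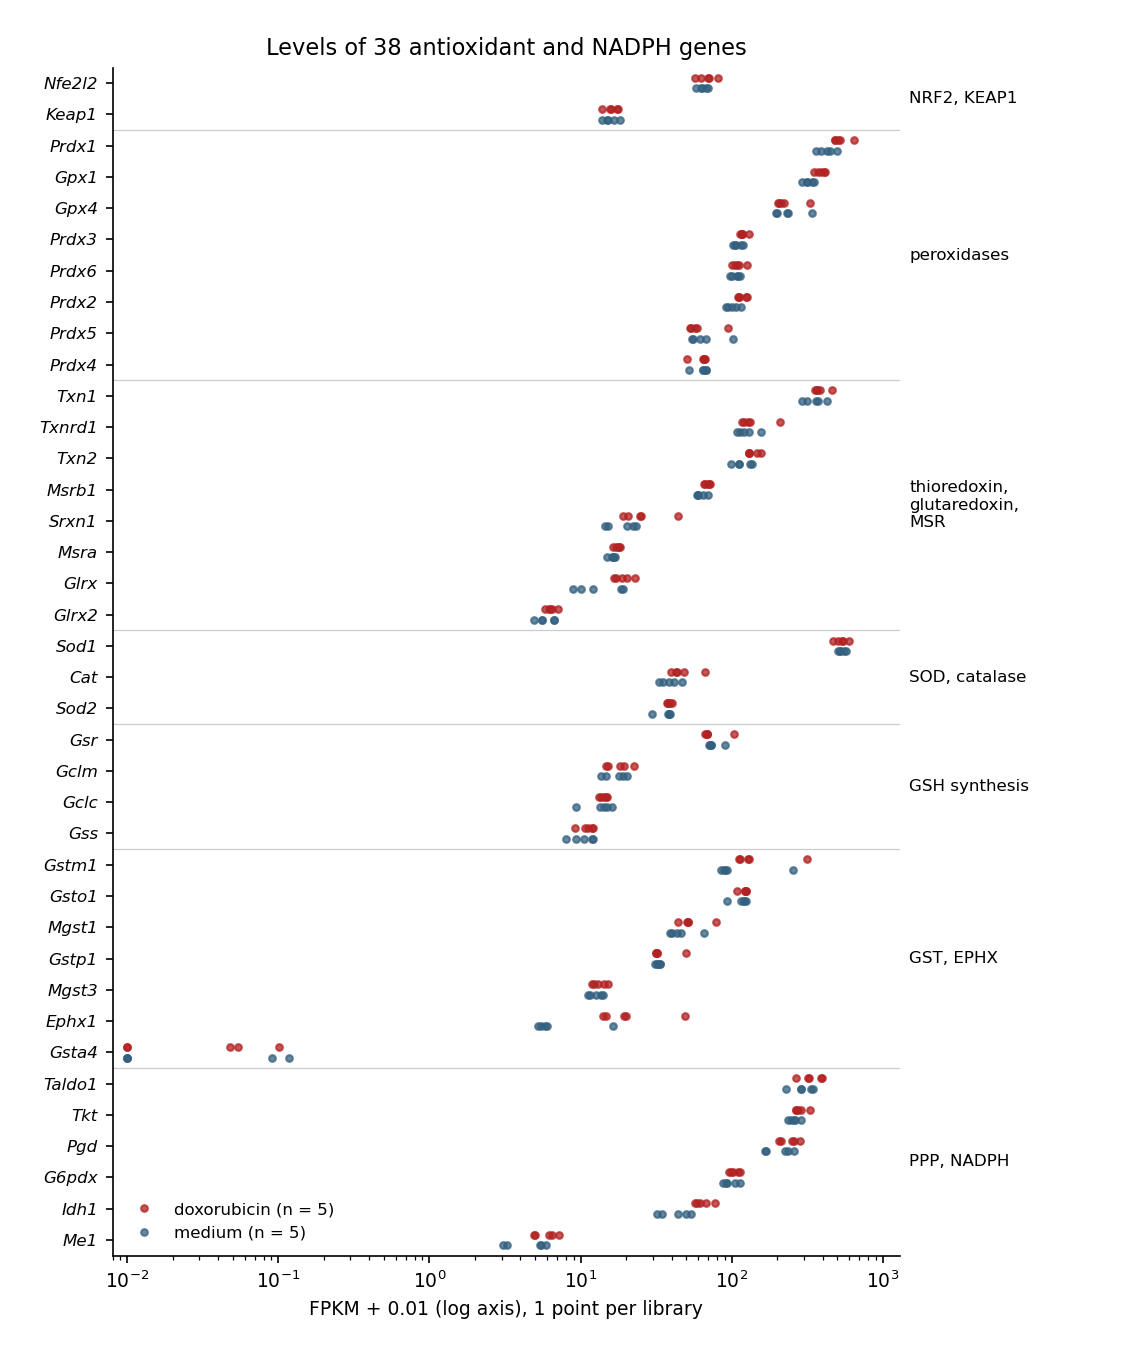
FPKM of each of the 38 genes in each library, on a log axis after adding 0.01, with doxorubicin libraries in red above medium libraries in blue and genes grouped by role (MSR, methionine sulfoxide reductases; SOD, superoxide dismutases; GSH, glutathione; GST, glutathione transferases; EPHX, epoxide hydrolase; PPP, pentose phosphate pathway). The groups do not overlap for Idh1 and Gpx1 and do for the others, and 1 library of each group lies apart for genes such as Gstm1 and Ephx1.

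Doxorubicin cells had slightly higher levels of much of this set. The median difference was 0.11 over the 37 genes and -0.03 over all 9869 genes tested, and 32 of the 37 (86.5%) had a difference above 0, against 43.2% of all genes. None of the 37 passed an adjusted p of 0.05 in limma with group as the only term, where 0.689% of all genes were higher and 0.223% lower. At an unadjusted p under 0.05, 8 of the 37 were higher and 0 lower, against 6.62% and 11.2% of all genes. An exact permutation test called 0 at an adjusted p under 0.05, against 0% of all genes. Its smallest possible p with 5 libraries per group was 0.00794, and its smallest adjusted p was 0.118. That test could therefore call no gene here. The 8 tested macrophage markers lay as far up as the set: their median difference was 0.10, 7 of 8 (87.5%) were above 0, and 0 passed without the block. With the replicate number as a block, described next, 2 of 8 (25%) were higher and 0 lower, and within number 1 their median was 0.43, against 0.31 for the set. The median level of the set is above that of all genes. The part of the markers' shift and of this level in these shares was not tested. In bulk RNA, a change in the share of cells in a given state and a change in RNA per cell cannot be told apart.

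Each group carried replicate numbers 1 to 5, and libraries with the same number deviated together from their group means, so the comparison was also made within numbers. Numbers 2 and 3 deviated together across groups about as closely (up to 0.69), as did numbers 4 and 5 (up to 0.51). The 5 numbers may therefore not be 5 independent pairs. With the replicate number as a block, 15 of the 37 (40.5%) were higher and 0 lower, against 7.81% of all genes higher and 13.7% lower (11.5% and 10.3% after median-ratio scaling, where 17 of the 37 were higher). The 15 were Ephx1, Idh1, Gstm1, Cat, Mgst1, Taldo1, Txn2, Glrx, Prdx2, Gpx1, Me1, Srxn1, Prdx1, Tkt and Pgd. Of the 37, 19 (51.4%) were higher in 5 of 5 numbers and 0 lower in 5 of 5, against 13.2% and 23.1% of all genes. The groups did not overlap for 2 of the 37 (5.41%), Idh1 and Gpx1, both higher, against 2.73% of all genes; 0 were lower without overlap, against 3.97%. The blocked count rests partly on numbers 4 and 5: it was 16, 15, 11, 5 and 4 without both libraries of number 1, 2, 3, 4 and 5, against 10.2%, 7.37%, 4.36%, 2.68% and 2.57% of all genes higher. Ephx1, Idh1, Gstm1 and Cat passed in each of these 5 fits.

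**Figure D2:**
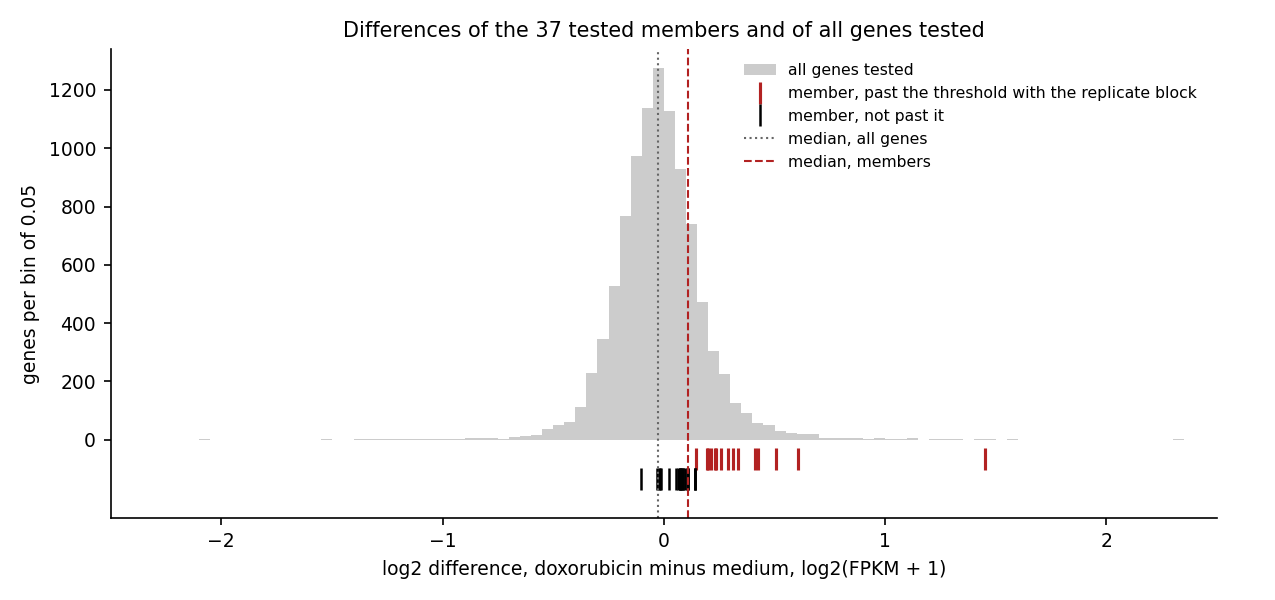
Log2 difference (doxorubicin minus medium) of all 9869 genes tested as a histogram of bins 0.05 wide, with a tick for each of the 37 tested members below it. The 15 members past the threshold with the replicate block (red) lie between 0.14 and 1.45, and the median of the members (dashed, 0.11) lies right of the median of all genes (dotted, -0.03).

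The shift differed in size between replicate numbers. The median difference of the 37 genes was 0.31, 0.04, 0.11, 0.12 and 0.15 within numbers 1 to 5, against 0.02, -0.07, 0.0041, -0.03 and -0.03 for all genes tested. It was above the median of all genes in each number, and it was smallest in number 2. The difference between numbers was not tested.

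**Figure D3:**
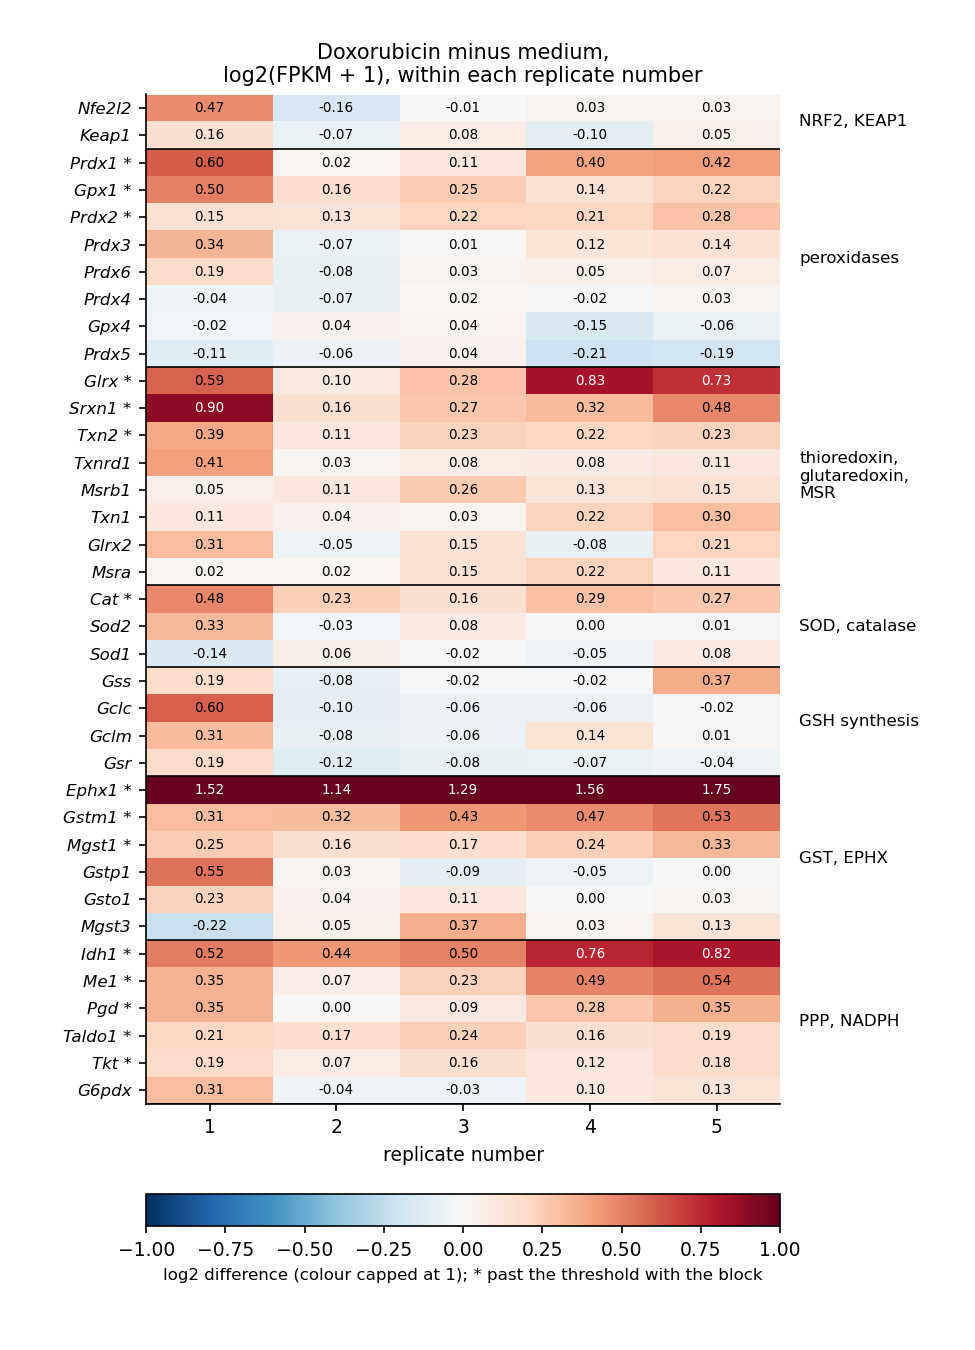
Log2 difference (doxorubicin minus medium) within each replicate number (columns) for the 37 tested genes (rows, grouped by role), with asterisks on genes past the threshold with the replicate block and colours capped at 1. Ephx1 lies between 1.14 and 1.75 in all 5 numbers, while the 4 genes of glutathione synthesis and reduction lie between 0.19 and 0.60 in number 1 and between -0.12 and 0.37 in the others.

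NRF2 and its repressor showed no difference beyond the spread. Nfe2l2 was at 80.9, 57.1, 62.3, 71.1 and 69.8 FPKM in doxorubicin libraries 1 to 5, against 58.0, 64.1, 62.7, 69.4 and 68.1 FPKM in medium libraries 1 to 5. The ranges overlap, with doxorubicin 1, 4 and 5 above every medium library and doxorubicin 2 below every one (difference 0.07, SE 0.09, limma adjusted p = 0.733, and 0.541 with the block; -0.03 without both number 1 libraries). Keap1, whose product presents NRF2 to a ubiquitin ligase, was at 15.7, 17.4, 17.7, 13.9 and 15.8 FPKM with doxorubicin, against 13.9, 18.3, 16.7, 15.0 and 15.3 FPKM in medium. Its values interleave between the groups (0.02, SE 0.09, adjusted p = 0.925, and 0.783 with the block). Both measurements are of messenger RNA, and NRF2 is known to be controlled largely through its protein.

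Promoters of the set were read for the antioxidant response element, the DNA letters that NRF2 binds. RefSeq windows (build GRCm38.p6, 250 bases before to 50 after a start) were matched by symbol for 33 of the 38 genes. The core TGACNNNGC was searched on both strands, and 10 of the 33 genes (30.3%) had it in a window, against 14.0% of all 27025 genes with a window. Counted by window it was 21.3% of 47, against 12.4% of all 32851. The 10 sites are shown to let the core be compared between genes that were higher with the block and genes that were not; each is written in the direction of the core, with the core in capitals and up to 10 bases on each side.
The first 5 belong to genes that were higher with the block.
Prdx1, chr4:116685466-116685474, - strand: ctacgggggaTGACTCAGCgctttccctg
Srxn1, chr2:152105552-152105560, - strand: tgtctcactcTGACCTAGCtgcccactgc
Me1, chr9:86695912-86695920, - strand: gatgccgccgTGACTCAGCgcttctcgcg
Mgst1, chr6:138140471-138140479, - strand: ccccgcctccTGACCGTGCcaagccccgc
Pgd, chr4:149166071-149166079, - strand: atttcagagcTGACATTGCactgatcgga
The next 5 belong to genes that did not pass with the block.
Nfe2l2, chr2:75704895-75704903, - strand: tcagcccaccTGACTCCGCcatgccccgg
Gclm, chr3:122245423-122245431, - strand: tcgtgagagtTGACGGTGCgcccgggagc
Txnrd1, chr10:82859114-82859122, - strand: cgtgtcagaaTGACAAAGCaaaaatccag
G6pdx, chrX:74428929-74428937, + strand: gcgtgtgcttTGACTGAGCtgacccgcct
Sod1, chr16:90220706-90220714, - strand: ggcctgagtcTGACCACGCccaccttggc
Prdx1 and Me1 carried the same core, TGACTCAGC, which overlaps the AP-1 core TGANTCA. Of the 15 genes higher with the block, all had a window and 5 had a match; of the 22 others tested, 18 had a window and 5 a match. The median difference was 0.18 for the 10 with a match and 0.14 for the 23 without. A match describes letters in a window and was not tested for binding.

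Among the peroxidases, which reduce hydrogen peroxide and lipid peroxides, 3 of 8 (37.5%) were higher with the block, Prdx1, Prdx2 and Gpx1, and 0 lower. The shares of all genes were 7.81% higher and 13.7% lower. Gpx1, the cytosolic selenium-containing glutathione peroxidase, was at 414, 392, 408, 349.4 and 370 FPKM in doxorubicin libraries 1 to 5, against 291, 349.4, 342, 317 and 317 FPKM in medium libraries. Doxorubicin 1, 2, 3 and 5 lay above every medium library, and doxorubicin 4 exceeded the highest, medium 2, by less than the printed digits (means 386 ± 26.8 FPKM with doxorubicin and 323 ± 23.3 in medium, SD, n = 5 each; difference 0.26, SE 0.07, limma adjusted p = 0.118, and 0.0182 with the block). Prdx1, a cytosolic peroxiredoxin that thioredoxin recycles, was at 649, 506, 486, 519 and 484 FPKM with doxorubicin, against 427, 498, 450, 392 and 362 FPKM in medium. The groups overlap through medium 2, and the difference was 0.02 in number 2 and 0.11 in number 3, against 0.60, 0.40 and 0.42 in numbers 1, 4 and 5 (0.31 over all, SE 0.10, adjusted p = 0.167, and 0.0307 with the block). Prdx2, its close relative in the cytosol, was at 112, 126, 124, 109 and 112 FPKM with doxorubicin, against 101, 115, 107, 94.4 and 91.9 FPKM in medium (0.20, SE 0.08, adjusted p = 0.206, and 0.0157 with the block). The groups overlap through medium 2, and the gene was higher in 5 of 5 numbers by 0.13 to 0.28. The Prdx1 window is shown in the direction of the gene, with its core in capitals on the opposite strand.
Prdx1, chr4:116685349-116685648, + strand: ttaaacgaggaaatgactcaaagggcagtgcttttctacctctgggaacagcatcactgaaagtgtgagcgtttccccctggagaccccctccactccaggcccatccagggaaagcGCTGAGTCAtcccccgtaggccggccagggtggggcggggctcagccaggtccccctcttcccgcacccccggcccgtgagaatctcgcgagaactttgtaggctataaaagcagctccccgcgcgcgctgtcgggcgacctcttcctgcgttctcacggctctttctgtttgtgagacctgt

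The other 5 peroxidase genes did not pass with or without the block. The mitochondrial Prdx3 had 119 ± 6.70 FPKM with doxorubicin and 110 ± 6.77 in medium (0.11). Prdx4, in the endoplasmic reticulum, had 62.6 ± 6.72 FPKM with doxorubicin and 63.4 ± 6.45 in medium (-0.02). Prdx5 had 63.4 ± 17.8 FPKM with doxorubicin and 68.4 ± 19.7 in medium (-0.10), and Prdx6, which reduces phospholipid peroxides, had 110 ± 9.52 FPKM with doxorubicin and 106 ± 7.25 in medium (0.05). Gpx4, the selenoenzyme that clears lipid peroxides and restrains ferroptosis, had 234 ± 55.0 FPKM with doxorubicin and 240 ± 57.2 in medium (-0.03). Number 1 lay far above the others for both genes of widest spread, with 94.9 FPKM of Prdx5 in doxorubicin 1 and 102 in medium 1, and 332 FPKM of Gpx4 in doxorubicin 1 and 338 in medium 1.

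In the thioredoxin and glutaredoxin group, which returns oxidised thiols to the reduced state, 3 of 8 genes (37.5%) were higher with the block and 0 lower. The shares of all genes were 7.81% and 13.7%. In 5 of 5 numbers, 7 of 8 (87.5%) were higher, against 13.2% of all genes. Glrx, a cytosolic glutaredoxin that removes glutathione from protein thiols, was at 18.7, 20.4, 22.8, 16.6 and 17.3 FPKM with doxorubicin, against 12.1, 19.0, 18.5, 8.87 and 10.0 FPKM in medium. Medium libraries 2 and 3 lay close to the doxorubicin libraries and medium 1, 4 and 5 well below them (0.51, SE 0.20, limma adjusted p = 0.218, and 0.0142 with the block). Srxn1, the sulfiredoxin gene whose product repairs overoxidised peroxiredoxins, was at 44.4, 25.0, 24.8, 19.1 and 20.6 FPKM with doxorubicin, against 23.4, 22.3, 20.4, 15.1 and 14.5 FPKM in medium. The groups overlap, but it was higher in every number, by 0.90 in number 1 and by 0.16 to 0.48 in the others (0.42, SE 0.22, adjusted p = 0.334, and 0.0204 with the block). Txn2, the mitochondrial thioredoxin gene, was at 130, 147, 156, 130 and 130 FPKM with doxorubicin, against 98.9, 136, 132, 111 and 111 FPKM in medium (0.24, SE 0.10, adjusted p = 0.245, and 0.0140 with the block). The groups overlap, and in both numbers 2 and 3 lay above the other 3.

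The remaining 5 of this group did not pass. Txn1, the cytosolic thioredoxin gene, had 387 ± 41.7 FPKM with doxorubicin and 353 ± 53.1 in medium (0.14, adjusted p = 0.0802 with the block). Txnrd1, the selenoenzyme that reduces thioredoxin, had 141 ± 38.5 FPKM with doxorubicin and 126 ± 19.1 in medium (0.14), and its difference was 0.41 in number 1 and 0.03 to 0.11 in the others. The methionine sulfoxide reductase genes Msrb1 and Msra differed by 0.14 and 0.10, with adjusted p of 0.0568 and 0.166 with the block. With the block, Msrb1 passed once doxorubicin 1 and medium 1 were left out (0.0188). The mitochondrial glutaredoxin gene Glrx2 had 6.37 ± 0.455 FPKM with doxorubicin and 5.87 ± 0.796 in medium (0.11).

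Of the 2 superoxide dismutase genes and catalase, catalase was the 1 gene to pass with the block (33.3% higher, against 7.81% of all genes). Cat, whose product splits hydrogen peroxide in peroxisomes, was at 66.2, 48.7, 43.2, 43.1 and 39.8 FPKM with doxorubicin, against 47.1, 41.2, 38.6, 35.0 and 32.8 FPKM in medium. It was higher within every number, by 0.48 in number 1 and 0.16 to 0.29 in the others, although the groups overlap (0.29, SE 0.14, limma adjusted p = 0.308, and 0.0107 with the block). Sod1, the cytosolic copper and zinc enzyme, had 531 ± 46.4 FPKM with doxorubicin and 535 ± 27.2 in medium (-0.01). Sod2, the mitochondrial manganese enzyme, had 38.6 ± 1.25 FPKM with doxorubicin and 36.7 ± 3.99 in medium (0.08). Medium 1 had 29.6 FPKM, and the other medium libraries, at 38.1 to 38.8 FPKM, lay within the doxorubicin range of 37.3 to 40.6.

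The genes that make and reduce glutathione did not pass in either fit, with 0 of 4 higher or lower. With the block, 7.81% of all genes were higher and 13.7% lower. Gclc and Gclm encode the catalytic and modifier subunits of glutamate-cysteine ligase, the first step of synthesis, and both are known NRF2 targets. Gss, the synthetase of the second step and the largest difference of the group, was at 12.1, 11.1, 12.0, 9.20 and 10.7 FPKM with doxorubicin, against 10.5, 11.8, 12.1, 9.36 and 8.02 FPKM in medium (0.09, SE 0.11, limma adjusted p = 0.746, and 0.409 with the block). Gclc had 14.2 ± 0.715 FPKM with doxorubicin and 13.7 ± 2.59 in medium (0.07), Gclm 18.0 ± 3.26 FPKM with doxorubicin and 17.1 ± 2.90 in medium (0.07), and Gsr, which reduces oxidised glutathione, 75.2 ± 15.6 FPKM with doxorubicin and 75.6 ± 8.02 in medium (-0.02). Gclc differed by 0.60 in number 1, where medium 1 had 9.36 FPKM, and by -0.10 to -0.02 in the others.

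The largest difference of the whole set was that of Ephx1, the microsomal epoxide hydrolase gene, whose product opens reactive epoxides with water. It was at 49.0, 14.0, 14.8, 19.5 and 20.1 FPKM in doxorubicin libraries 1 to 5, against 16.4, 5.80, 5.48, 5.95 and 5.26 FPKM in medium libraries 1 to 5. Medium 1 alone lay among the doxorubicin values, and the other 4 medium libraries lay below all of them. The ratio of the means was 3.02, and the difference was 1.45 (SE 0.36, limma adjusted p = 0.0977, 1.54e-04 with the block, and 6.05e-04 without both number 1 libraries and no block). Within numbers 1 to 5 it differed by 1.52, 1.14, 1.29, 1.56 and 1.75. It was the member with the smallest adjusted p with the block and passed whichever number was left out. Its window held no TGACNNNGC on either strand and is shown because the gene differed most.
Ephx1, chr1:181017520-181017819, - strand: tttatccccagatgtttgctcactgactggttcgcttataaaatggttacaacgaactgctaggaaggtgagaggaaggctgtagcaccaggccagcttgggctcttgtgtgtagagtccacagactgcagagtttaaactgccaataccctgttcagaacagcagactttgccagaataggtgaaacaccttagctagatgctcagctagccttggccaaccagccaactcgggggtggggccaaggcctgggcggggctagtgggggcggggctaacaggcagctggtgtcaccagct

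Among the 6 tested glutathione transferase and epoxide hydrolase genes, 3 (50%) were higher with the block and 0 lower, against 7.81% and 13.7% of all genes. Gstm1, a mu class transferase that joins glutathione to electrophiles, was at 316, 112, 114, 129 and 130 FPKM with doxorubicin, against 255, 90.2, 84.5, 92.5 and 89.4 FPKM in medium. Number 1 lay far above the others in both groups, and outside it every doxorubicin library exceeded every medium library (0.41, SE 0.35, limma adjusted p = 0.580, 0.00222 with the block, and 0.00563 without both number 1 libraries and no block). Gstm1 belongs to a family of similar copies, and how shared reads were assigned is not given in the sources used here. Mgst1, a membrane-bound transferase, was at 78.9, 51.8, 44.5, 51.4 and 50.8 FPKM with doxorubicin, against 66.1, 46.2, 39.3, 43.5 and 40.1 FPKM in medium. The groups overlap, and it was higher in 5 of 5 numbers by 0.16 to 0.33 (0.23, SE 0.17, adjusted p = 0.514, and 0.0115 with the block). The other 3 tested transferases were Gstp1 (0.09), which had 49.8 FPKM in doxorubicin 1 and 31.3 to 33.8 FPKM in the other 9 libraries, Gsto1 (0.08) and Mgst3 (0.07), and none of them passed.

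The pentose phosphate and NADPH genes were higher with the block in 5 of 6 cases (83.3%) and lower in 0, against 7.81% and 13.7% of all genes. Of these 5, Idh1 alone passed in every fit that left out 1 number, and Pgd and Tkt passed in 2 of those 5 fits and under 2 of 3 scalings. Idh1, the cytosolic isocitrate dehydrogenase that makes NADPH, was at 77.4, 67.6, 62.2, 59.0 and 57.1 FPKM with doxorubicin, against 53.9, 49.7, 43.8, 34.5 and 31.9 FPKM in medium. The groups did not overlap, and the order of the numbers was the same in both (64.7 ± 8.16 FPKM with doxorubicin and 42.8 ± 9.47 in medium; 0.61, SE 0.15, limma adjusted p = 0.0920, 0.00165 with the block, and 0.0271 without both number 1 libraries and no block). Me1, the cytosolic malic enzyme and another NADPH source, was at 7.17, 6.19, 6.49, 4.99 and 4.94 FPKM with doxorubicin, against 5.43, 5.86, 5.38, 3.26 and 3.08 FPKM in medium. Medium 4 and 5 lay below all doxorubicin libraries and the others overlapped. Its level was the lowest of the 37 tested genes. The difference was 0.07 in number 2 and 0.54 in number 5 (0.34 over all, SE 0.17, adjusted p = 0.319, and 0.0197 with the block). The first Idh1 window, which held no core, and the Me1 window with its core are shown because these are the NADPH genes with the largest differences.
Idh1, chr1:65186430-65186729, - strand: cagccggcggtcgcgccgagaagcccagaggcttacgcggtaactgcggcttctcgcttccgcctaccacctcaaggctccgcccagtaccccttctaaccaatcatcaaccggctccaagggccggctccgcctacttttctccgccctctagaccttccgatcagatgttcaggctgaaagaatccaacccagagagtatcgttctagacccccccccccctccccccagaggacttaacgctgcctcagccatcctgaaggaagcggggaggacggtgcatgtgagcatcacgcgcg
Me1, chr9:86695865-86696164, - strand: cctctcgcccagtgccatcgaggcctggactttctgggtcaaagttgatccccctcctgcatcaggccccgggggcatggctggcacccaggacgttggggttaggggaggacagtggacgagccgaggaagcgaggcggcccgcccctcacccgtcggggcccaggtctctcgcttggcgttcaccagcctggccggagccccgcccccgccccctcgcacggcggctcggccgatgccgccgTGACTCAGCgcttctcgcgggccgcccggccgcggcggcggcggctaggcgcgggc

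In the pentose phosphate pathway itself, Pgd, Tkt and Taldo1 passed with the block and G6pdx did not. G6pdx, the rate-limiting first enzyme, had 105 ± 7.66 FPKM with doxorubicin and 98.2 ± 10.7 in medium (0.10, SE 0.08, limma adjusted p = 0.590, and 0.255 with the block). Pgd, the second NADPH-making dehydrogenase, was at 285, 259, 251, 206 and 212 FPKM with doxorubicin, against 224, 260, 235, 170 and 165 FPKM in medium. The groups overlap, and the difference was -0.0040 in number 2 and 0.09 to 0.35 in the others (0.21, SE 0.14, adjusted p = 0.461, and 0.0407 with the block). Taldo1, the transaldolase gene, was at 265.2, 390, 396, 322 and 325 FPKM with doxorubicin, against 230, 347, 335, 288 and 286 FPKM in medium. The groups overlap, but the difference was 0.16 to 0.24 in every number, the most even of the pathway (0.19, SE 0.14, adjusted p = 0.490, and 0.0123 with the block). Tkt, the transketolase gene, was at 328, 275, 288, 267 and 268 FPKM with doxorubicin, against 287, 261, 258, 246 and 236 FPKM in medium (0.14, SE 0.08, adjusted p = 0.349, and 0.0356 with the block). Medium 1 alone lay among the doxorubicin values.

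**Figure D4:**
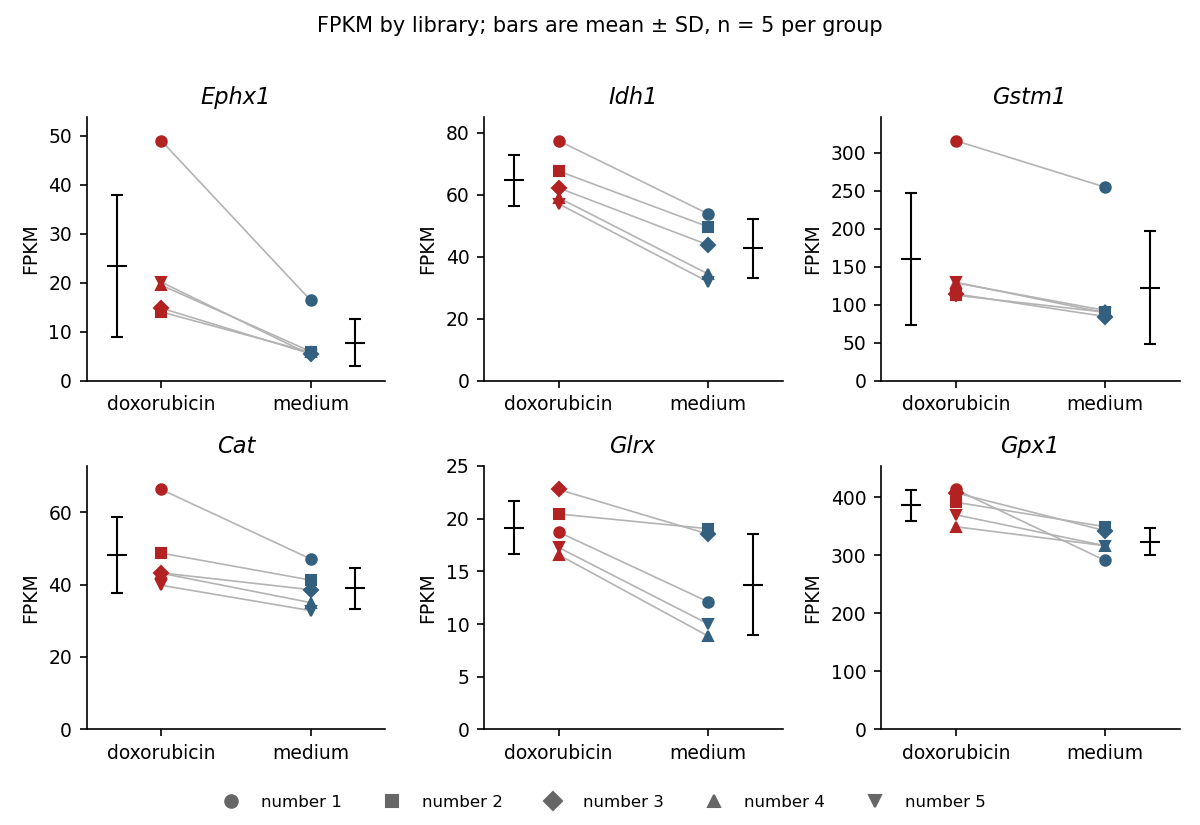
FPKM per library of 6 genes in doxorubicin (left, red) and medium (right, blue), with a symbol for each replicate number, grey lines joining libraries of the same number and bars for mean ± SD (n = 5 per group). Each line runs higher at its doxorubicin end, and number 1 stands far above the others for Ephx1 and Gstm1.

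Other genes of these pathways did not move in 1 direction. Over 6 further lists of 130 genes, 97 were tested and none passed without the block. With the block, 16 were higher and 19 lower, against 7.81% and 13.7% of all genes. Some genes named here lost the blocked call in at least 1 of the 5 fits that left out both libraries of 1 number. They were Txndc12, Txnrd2, Msrb2, Glrx3, Mgst2, Pgls, Prps2, Ucp2, Ccs, Hmox1, Sqstm1, Bach1 and Gsk3b. Among 22 other genes known as NRF2 targets, 19 were tested, and 5 were higher and 2 lower with the block. Abhd4, a lipid hydrolase gene, had 12.4 ± 4.92 FPKM with doxorubicin and 5.60 ± 1.49 in medium, with no overlap (0.98, SE 0.22, limma adjusted p = 0.0696, and 0.00339 with the block). The aldose reductase gene Akr1b3 (0.54, 0.00222 with the block) and the carbonyl reductase gene Cbr3 (0.47, 0.0104 with the block) were also higher. The 2 lower genes were Slc6a9 (-0.72, 0.00729 with the block) and Sqstm1 (-0.42, 0.0487 with the block), each lower in 5 of 5 numbers.

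Of 3 genes often read as NRF2 targets, Hmox1 passed with the block, Slc7a11 did not and Nqo1 was too low to test. Hmox1, the heme oxygenase gene, was at 130, 30.0, 34.7, 34.4 and 37.0 FPKM with doxorubicin, against 82.2, 29.0, 28.2, 24.5 and 25.9 FPKM in medium. Outside number 1 the doxorubicin libraries all lay above the medium libraries (0.39, SE 0.43, limma adjusted p = 0.680, and 0.0151 with the block). Nqo1, a quinone reductase gene, was at 0.529 to 1.09 FPKM with doxorubicin and 0.266 to 0.568 in medium, and was not tested. Slc7a11, the cystine importer gene, was at 16.7, 4.00, 3.27, 8.05 and 6.80 FPKM with doxorubicin, against 8.97, 5.11, 5.49, 6.93 and 6.45 FPKM in medium. It was lower in numbers 2 and 3 and higher in numbers 1, 4 and 5 (0.04, SE 0.33, adjusted p = 0.965, and 0.885 with the block).

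Of 20 tested genes around glutathione, 3 (15%) were higher and 3 (15%) lower with the block, the lower share being near the 13.7% of all genes. Chac1, whose product degrades glutathione, was at 2.87, 1.74, 2.24, 9.85 and 9.58 FPKM with doxorubicin, against 7.71, 10.3, 13.2, 13.2 and 13.2 FPKM in medium. Slc3a2, the partner chain of the cystine importer, was at 93.4 ± 13.8 FPKM with doxorubicin and 125 ± 17.9 in medium. These genes fell by 1.23 and 0.41 on the log2 scale with limma adjusted p of 0.0157 and 0.000891 with the block, and each was lower in 5 of 5 numbers. Mgst2, another membrane transferase gene, was higher (0.32, 0.0381 with the block).

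Of 17 tested thioredoxin system genes outside the set, 3 were higher and 2 lower with the block, against 7.81% and 13.7% of all genes. The higher ones included Msrb2, a mitochondrial methionine sulfoxide reductase gene (0.31), and Glrx3 (0.22), and the lower ones Txndc12, a thiol oxidoreductase gene of the endoplasmic reticulum (-0.31), with limma adjusted p of 0.0302, 0.0206 and 0.0176. The others were Sesn1, which was higher (0.44, 0.0113 with the block), and Txnrd2, which was lower (-0.18, 0.0443 with the block). Txnip, whose product binds and inhibits thioredoxin, was at 160, 83.3, 101, 147 and 150 FPKM with doxorubicin, against 29.0, 101, 120, 200 and 206 FPKM in medium. It lay 2.43 higher within number 1 and 0.25 to 0.45 lower within numbers 2 to 5. Over all libraries it did not pass (0.20, adjusted p = 0.869, and 0.731 with the block), and without both number 1 libraries it was lower with the block (-0.36, 0.00113).

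Among 15 other NADPH and pentose phosphate genes tested, 2 were higher and 3 lower with the block, against 7.81% and 13.7% of all genes. Pgls, the lactonase between G6pdx and Pgd, had 81.0 ± 4.06 FPKM with doxorubicin and 96.6 ± 3.39 in medium, with no overlap (-0.25, SE 0.06, limma adjusted p = 0.0694, and 0.0124 with the block). Aldh1l2, a mitochondrial folate enzyme that makes NADPH, had 4.45 ± 1.97 FPKM with doxorubicin and 11.4 ± 5.03 in medium (-1.17, with 7.98e-05 under the block), and Prps2, which uses the pathway's ribose phosphate, had 23.2 ± 0.784 FPKM with doxorubicin and 17.7 ± 3.36 in medium (0.39, 0.0194 with the block). The direction of Pgls was thus opposite to that of Pgd, Tkt and Taldo1.

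Of 13 tested regulators of NRF2, 0 were higher and 6 lower with the block, against 7.81% and 13.7% of all genes. Mafg, a small MAF partner of NRF2, had 18.4 ± 1.84 FPKM with doxorubicin and 23.5 ± 2.77 in medium, with all doxorubicin values at or below 20.03 and all medium values at or above 20.04 (-0.33, SE 0.09, limma adjusted p = 0.124, and 0.00473 with the block). Nfe2l1, which encodes the related factor NRF1, had 51.3 ± 11.2 FPKM with doxorubicin and 84.0 ± 25.2 in medium (-0.67, adjusted p = 6.99e-04 with the block). Bach1 (-0.17, 0.0381 with the block) and Gsk3b (-0.19, 0.0291 with the block) were also among the lower regulators. Syvn1, a ubiquitin ligase gene, did not pass (0.21, 0.0951 with the block). Of 13 genes for superoxide sources and other scavengers, 3 were higher and 3 lower with the block, against the same shares of all genes. Ucp2, a mitochondrial carrier gene, had 393 ± 23.0 FPKM with doxorubicin and 329 ± 7.79 in medium (0.26, 0.010 with the block), and Ccs, the copper chaperone of Sod1, had 29.0 ± 2.55 FPKM with doxorubicin and 24.8 ± 1.05 in medium (0.21, 0.0250 with the block), both with no overlap. The oxidase gene Nox3 had 0.717 ± 0.307 FPKM with doxorubicin and 1.40 ± 0.594 in medium (-0.46, 0.0102 with the block). It averaged 1.06 FPKM over all libraries and met the filter of 1 FPKM only through the medium group. The filter thus favoured its call as lower.

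**Figure D5:**
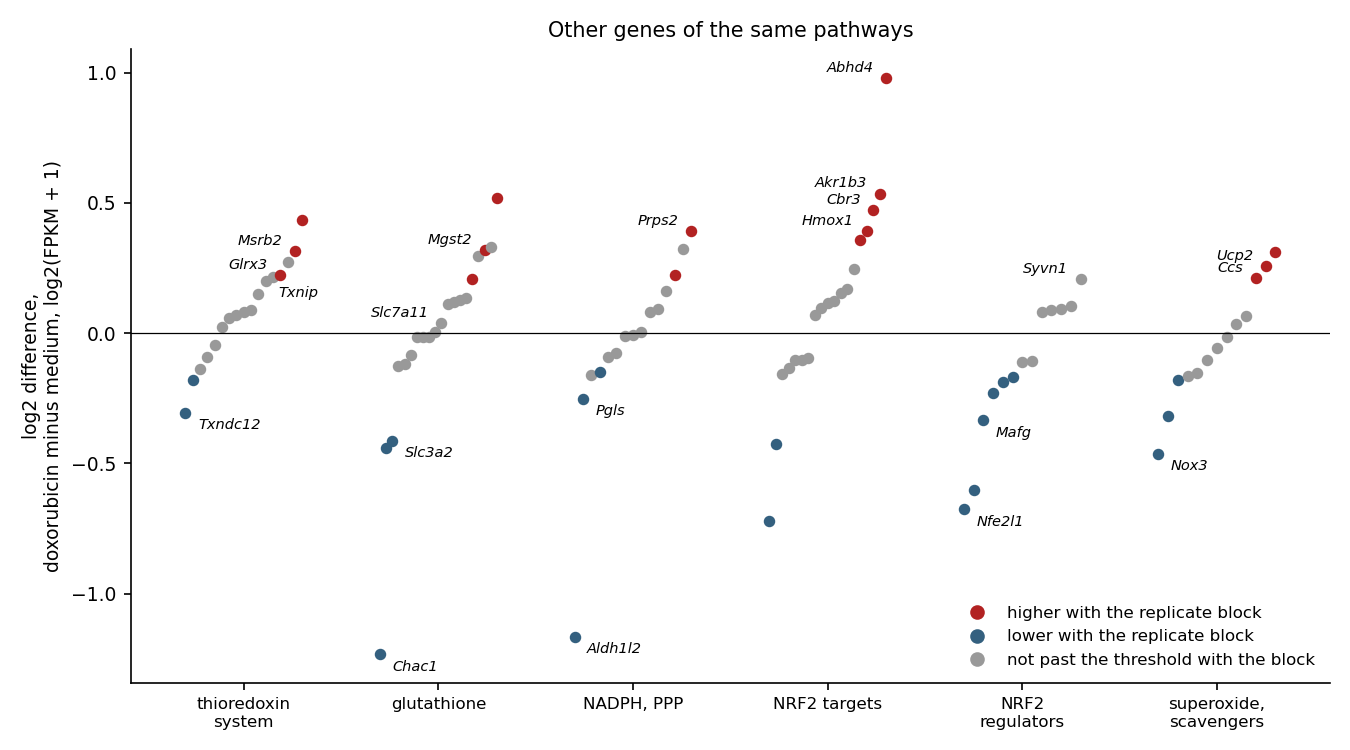
Log2 difference (doxorubicin minus medium) of the 97 tested genes of 6 further lists (PPP, pentose phosphate pathway), 1 point per gene ordered within its list, with colours for calls with the replicate block and names on genes chosen by rule. The lists run from Chac1 (-1.23) to Abhd4 (0.98). The list of NRF2 regulators has 6 genes lower and 0 higher with the block, against 13.7% and 7.81% of all genes.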

How the data were processed

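RNA was measured in 5 doxorubicin and 5 medium libraries of RAW264.7 cells, grouped by their titles. The deposited values are FPKM per gene as the authors computed them, and the submitters' processing notes name build GRCm39; aligner and quantifier are not given in the sources used here. The total counts are not known, so the number of libraries limits the precision. FPKM were tested on log2(FPKM + 1) with limma 3.58.1 (trend, R 4.3.3) over all 9869 genes averaging 1 FPKM or more, with Benjamini-Hochberg adjustment, a threshold of 0.05 and group as the only term; a fold change on this scale understates that of low genes.

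The replicate numbers of the titles were treated as pairs because same-numbered libraries deviated together from their group means (correlations 0.79, 0.70, 0.67, 0.52 and 0.55 for numbers 1 to 5). Numbers 2 and 3 also deviated together across groups (up to 0.69), as did 4 and 5 (up to 0.51). The fit with the number as a block is printed beside each result it changes. Each SE printed is that of the fit without the block. An adjusted p with the block rests on the spread left after differences between numbers are removed.

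The genes and gene lists were chosen with earlier results of these data known. Values per library are given for genes past the threshold with or without the block, for Nfe2l2 and Keap1 and for the largest difference of each group. By rule, genes of the other lists were named as the 3 of each list with the smallest unadjusted p without the block. Hmox1, Nqo1, Slc7a11 and Txnip were named whatever their values. Sesn1, Txnrd2, Slc6a9, Sqstm1, Bach1 and Gsk3b were named after their values were seen, as were the genes under other observations. Alternatives were pseudocounts of 0.1 and 5, no filter and a filter of 5 FPKM, 3 scalings, library weights, an exact permutation test and leaving out libraries. Promoter windows came from RefSeq (GRCm38.p6), a build other than that of the FPKM, and only their letters and own coordinates were used. Figures were drawn with matplotlib 3.10.9 in Python 3.11.15.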

Additional observations from a re-analysis of the deposited data

Results flagged for a closer look

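Of 116 sets of 5 values (58 genes in 2 groups), 23 had 1 library far from the other 4 on log2(FPKM + 1) by Dixon's test (a gap over 0.71 of the range), where chance gives about 1 in 20. All 23 were libraries of replicate number 1, 15 of them doxorubicin 1 and 8 medium 1, and they fell in 17 genes.

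In both number 1 libraries, Gstm1 was high with 316 FPKM in doxorubicin 1 and 255 in medium 1, Ephx1 with 49.0 in doxorubicin 1 and 16.4 in medium 1, Gsr with 103 in doxorubicin 1 and 89.9 in medium 1, and Hmox1 with 130 in doxorubicin 1 and 82.2 in medium 1. Prdx4 was low with 50.6 FPKM in doxorubicin 1 and 52.2 in medium 1, and Gsto1 with 109 in doxorubicin 1 and 92.7 in medium 1.

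In doxorubicin 1 alone, Prdx1 was high at 649 FPKM, Txn1 at 460, Gpx4 at 332, Txnrd1 at 209, Prdx3 at 130, Prdx5 at 94.9, Mgst1 at 78.9 and Gstp1 at 49.8 FPKM. Pgls was low there at 74.0 FPKM. In medium 1 alone, Sod2 was low at 29.6 FPKM and Syvn1 at 10.2 FPKM. For Gpx4, Prdx5, Mgst1, Txnrd1, Txn1 and Gstp1, medium 1 was also the highest medium library, with a gap below the 0.71 of the range that the test asks for.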

How the results depend on the processing

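With group as the only term, 0 of the 37 genes passed under other pseudocounts, filters and scalings, and 0 were lower in any fit. The exact permutation test also gave 0, but its smallest adjusted p over all genes was 0.118, so it could call none. Counts are given as genes of the 37 that were higher, then all genes higher and lower. They were 15, 771 and 1356 with the replicate block, against 0, 68 and 22 without it; 3, 283 and 273 without both number 1 libraries; 16, 1010 and 1817 without them and with the block; and 19, 1379 and 2302 with library weights. The filter of 5 FPKM gave 40 higher among all genes, and the permutation test 0 and 0. Fits added after the data were seen, all with the block, gave 15, 727 and 822 without number 2; 11, 430 and 870 without number 3; 5, 264 and 373 without number 4; 4, 254 and 374 without number 5; 15, 805 and 1553 with equal sums; 17, 1132 and 1020 with median-ratio scaling; 13, 916 and 961 with quantile normalization; 15, 761 and 1359 with a pseudocount of 0.1; 8, 418 and 654 with no filter; and 17, 1205 and 1963 with 3 sets of numbers as blocks. Leaving out 1 library gave 0 to 2, 15 to 136 and 0 to 90, and a median of the 37 between 0.09 and 0.15; the 2 were Ephx1 and Idh1 without medium 1. The cause was not tested.

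Genes of the set and those named by rule gave 1855 comparisons with an alternative. Of these, 1410 kept direction and stayed above the threshold, 390 passed and 55 turned direction, in 14 genes. None of the compared genes passed without the block, so no call could be lost. Without both number 1 libraries, with or without the block, the difference was -0.0593 for Gclc, -0.0287 for Gstp1, -0.0113 for Keap1, -0.0259 for Nfe2l2, -0.1593 for Slc7a11, 0.0186 for Sod1 and -0.3551 for Txnip, of which Txnip passed with the block. Library weights gave -0.0387 for Gclc, -0.0108 for Gstp1, -0.0360 for Slc7a11, 0.0226 for Sod1 and -0.4340 for Txnip. Median-ratio scaling, with or without the block, gave 0.0061 for Gsr, 0.0102 for Prdx4 and 0.0149 for Sod1. The block gave 0.0018 for Gsr without number 2 and -0.0017 for Mgst3 without number 3. Leaving out 1 library gave ranges of -0.0479 to 0.1333 for Gclc, -0.0179 to 0.1293 for Gclm, -0.1650 to 0.0964 for Gpx4, -0.1399 to 0.0405 for Gsr, -0.0409 to 0.1220 for Gstp1, -0.0187 to 0.0740 for Keap1, -0.0858 to 0.0548 for Prdx4, -0.2562 to 0.050 for Prdx5, -0.2630 to 0.2506 for Slc7a11, -0.0564 to 0.0288 for Sod1, -0.2644 to 0.4327 for Txnip and -0.0076 to 0.2245 for Txnrd1.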

Other observations

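The metallothionein genes, whose products bind metals and scavenge oxidants, moved in opposite directions with the replicate block. These and the next genes were chosen after their values were seen. Mt1 was at 843, 502, 563, 434 and 483 FPKM with doxorubicin, against 584, 498, 489, 339 and 352 FPKM in medium (0.31, limma adjusted p = 0.0218 with the block and 0.443 without; it passed in 3 of 5 fits that left out 1 number). Mt2 was at 313, 160, 189, 201 and 223 FPKM with doxorubicin, against 444, 200, 220, 255 and 260 FPKM in medium (-0.32, adjusted p = 0.00631 with the block and 0.488 without). Mt1 was higher and Mt2 lower in each of the 5 numbers.

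Gsta3, an alpha class transferase, was at 26.2, 4.89, 4.88, 5.16 and 5.90 FPKM with doxorubicin, against 14.9, 3.71, 2.91, 4.04 and 3.51 FPKM in medium (0.52, limma adjusted p = 0.00525 with the block and 0.617 without). Maff, a small MAF gene like Mafg, had 3.46 ± 1.57 FPKM with doxorubicin and 6.07 ± 3.84 in medium (-0.60, adjusted p = 0.00507 with the block and 0.348 without). Mafk, another small MAF gene, lay in the other direction and did not pass. It had 15.7 ± 0.566 FPKM with doxorubicin and 14.7 ± 1.44 in medium (0.09, adjusted p = 0.249 with the block).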
